A study of Mus musculus with 8 samples.

Results

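The 8 genes described here encode transcription factors that mark naive and stem-like T cells: *Tcf7*, *Lef1*, *Bach2*, *Satb1*, *Foxo1*, *Foxp1*, *Klf2* and *Myb*. They were chosen by name, and each is on 1 of the 52636 rows of the deposited table. All 8 were among the 12816 genes that were tested. RNA was sequenced from splenic CD4+ T cells of mice of 6 to 8 weeks, 200000 sorted cells a library and 2 libraries in each of 4 groups. The reporter for Foxp3 that the mice carry separated Tregs (CD4+ Foxp3+) from Tconvs (CD4+ Foxp3-). Before the sort, CD25+ cells were depleted from the cells for Tconvs but not from those for Tregs. The part of this step in the differences between the subsets was not tested. Controls carried 1 functional *Cd27* allele (CD27+/-), so that both genotypes lack the other copy of the receptor. CD70Tg mice (CD11c-Cd70tg;CD27+/-) carried in addition CD70, the ligand of CD27, under the CD11c promoter, which is active mainly in dendritic cells. The control columns of the table are named KO and their samples carry the genotype WT; they were taken as the CD27+/- controls of the study. Nothing in the labels says whether the libraries of a group came from separate mice, or how many mice gave the cells of 1 library, so that p-values measure the spread between these libraries only.

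Naive T cells stay quiescent through a network of such factors, and most of the network is turned down when the cells become effectors. TCF-1 (*Tcf7*) and LEF-1 bind the same DNA element and work with β-catenin and with corepressors of the TLE family. BACH2 is a repressor that competes with AP-1 and restrains effector genes, in Tregs too, and SATB1 folds chromatin into loops. FOXO1 keeps genes of survival and homing on in resting T cells until AKT drives it out of the nucleus, so that its RNA does not give its activity. KLF2 lies downstream of it and controls exit from lymphoid organs. FOXP1 holds naive cells quiescent, and MYB, a factor of haematopoietic progenitors, is needed for stem-like memory cells and for effector Tregs.

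Values are CP20M, the number of reads on a gene scaled to 20000000 per library, so that a value of 20 stands for 1 read in 1000000. The reads on genes behind a library, worked out from the steps between low values, were between 6940000 and 33370000 in Tconvs and between 1920000 and 4560000 in Tregs, and the shallowest library was the first CD70Tg Treg library. Libraries are called first and second by their order in the table. *Foxp3*, the lineage factor of Tregs, lay between 19769 and 21367 in the 4 Treg libraries and between 1039 and 1497 in the 4 Tconv libraries. Differences were tested with limma on log2(CP20M + 5) in 1 model over the 8 libraries, and the p-values of all genes tested were adjusted together (Benjamini-Hochberg). A gene is said to have risen or fallen where its adjusted p-value was under 0.05. In bulk RNA, fewer cells with a transcript and less transcript per cell cannot be told apart.

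To show where these genes start, windows of 300 bases around annotated starts (250 before, 50 after) were taken from RefSeq on GRCm38.p6. RefSeq gives 18 windows for the 8 members. They were searched on both strands for CTTTGAT or CTTTGAA (TCF/LEF), GTAAACA (FOXO and FOXP), CCACACCC or CCCCACCC (KLF), TGAGTCA (BACH2) and CAACTG (MYB). A match is a run of letters and not a binding site. The windows with a match are printed for *Foxp1*, the member that fell in both subsets, for *Tcf7*, the most abundant in Tconvs, and for *Myb*, the least abundant, and the window of *Klf2* is printed since *Klf2* had the changes closest to 0. Capitals mark the matches, and a match on the opposite strand reads as its reverse complement.
Foxp1, chr6:99520944-99521243, minus strand: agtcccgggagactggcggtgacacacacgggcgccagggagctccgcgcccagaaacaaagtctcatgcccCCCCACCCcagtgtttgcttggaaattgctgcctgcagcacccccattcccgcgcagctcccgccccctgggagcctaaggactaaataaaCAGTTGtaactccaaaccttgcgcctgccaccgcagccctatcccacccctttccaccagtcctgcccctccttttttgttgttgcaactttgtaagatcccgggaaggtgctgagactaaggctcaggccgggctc
Foxp1, chr6:99266466-99266765, minus strand: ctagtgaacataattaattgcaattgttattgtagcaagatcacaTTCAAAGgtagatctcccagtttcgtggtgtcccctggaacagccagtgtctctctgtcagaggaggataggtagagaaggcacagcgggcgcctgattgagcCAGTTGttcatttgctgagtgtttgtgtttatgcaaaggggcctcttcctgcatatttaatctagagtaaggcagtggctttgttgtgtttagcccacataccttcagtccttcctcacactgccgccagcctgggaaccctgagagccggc
Tcf7, chr11:52282546-52282845, minus strand: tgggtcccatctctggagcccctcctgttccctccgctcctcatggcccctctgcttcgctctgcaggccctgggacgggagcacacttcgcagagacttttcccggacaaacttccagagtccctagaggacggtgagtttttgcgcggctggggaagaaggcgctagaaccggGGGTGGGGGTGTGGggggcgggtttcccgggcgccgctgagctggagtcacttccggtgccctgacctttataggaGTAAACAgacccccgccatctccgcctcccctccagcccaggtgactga
Myb, chr10:21160935-21161234, minus strand: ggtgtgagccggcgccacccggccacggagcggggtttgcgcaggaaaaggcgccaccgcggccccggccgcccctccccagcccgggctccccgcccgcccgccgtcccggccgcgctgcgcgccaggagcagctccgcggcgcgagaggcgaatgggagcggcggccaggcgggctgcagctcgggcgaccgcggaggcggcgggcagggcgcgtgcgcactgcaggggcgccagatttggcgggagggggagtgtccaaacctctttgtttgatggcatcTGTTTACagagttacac
Klf2, chr8:72318812-72319111, plus strand: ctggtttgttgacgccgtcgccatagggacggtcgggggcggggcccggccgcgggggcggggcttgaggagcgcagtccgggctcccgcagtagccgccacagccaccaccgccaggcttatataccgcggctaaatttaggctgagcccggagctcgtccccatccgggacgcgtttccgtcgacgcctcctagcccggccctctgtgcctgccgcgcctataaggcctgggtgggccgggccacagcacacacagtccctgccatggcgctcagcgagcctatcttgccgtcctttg

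The first *Foxp1* window holds the KLF letters at base -178 from the start and the MYB letters at -87. The second *Foxp1* window holds the TCF/LEF letters at -205 and the MYB letters at -102, and the remaining window of the gene holds none. The *Tcf7* window has the FOXO letters at base 2 and a pair of overlapping KLF matches at -75 and -69. The *Myb* window holds the FOXO letters at base 34. The *Klf2* window has no match, and neither has that of *Foxo1* or *Bach2*. Over all members, the KLF letters were in 6 of 18 windows and in 4 of 8 genes, and 13.0% of all 32851 RefSeq windows of mouse and 14.7% of the 27025 genes hold them. The other shares of all windows are 8.65% for TCF/LEF, 3.65% for FOXO and FOXP, 5.2% for BACH2 and 13.7% for MYB, beside 1, 2, 0 and 3 of the 18 windows. The first pair of *Lef1* windows overlap, and their KLF letters (CCCCACCC at -78 and at -104) are the same bases. The printed windows differ in GC content, from 48.7% for the second of *Foxp1* to 69.3% for *Klf2* and more for *Myb*, with a median of 52.7% over all windows.

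The first comparison of interest was the level of each factor in each population. Levels of different genes were compared per kb of annotated exon (GENCODE M21, GRCm38), as longer transcripts give more reads. In control Tconvs, *Tcf7* was the highest of the 8 with 15900 ± 717 CP20M per kb (SD, n = 2), followed by *Klf2* with 6590 ± 164 and *Lef1* with 1770 ± 269. *Foxo1* (974 ± 104) and *Satb1* (870 ± 71.9) came next, and their libraries overlapped. *Foxp1* (368 ± 9.62), *Bach2* (292 ± 31.2) and *Myb* (51.6 ± 12.3) were the lowest. The order was the same in CD70Tg Tconvs, from 12300 ± 2240 for *Tcf7* to 31.5 ± 5.7 for *Myb*, and again only *Foxo1* and *Satb1* overlapped as neighbours.

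In Tregs the order was another one. *Klf2* came first with 3710 ± 227 CP20M per kb in control Tregs, then *Tcf7* with 3090 ± 351 and *Foxo1* with 1080 ± 86.2 (SD, n = 2 each). *Lef1* followed with 458 ± 9.9. *Foxp1* (299 ± 10.8) and *Satb1* (282 ± 41.8) overlapped, and *Bach2* (195 ± 24.0) and *Myb* (68.9 ± 1.66) came last. In CD70Tg Tregs, *Klf2* was at 3730 ± 386, *Tcf7* at 2360 ± 49.6 and *Foxo1* at 932 ± 32.0 per kb, and *Satb1* (200 ± 32.2) and *Foxp1* (169 ± 19.1) overlapped in the opposite order. The plot of levels per kb shows *Tcf7* and *Lef1* far apart between the subsets and *Foxo1* the closest together.

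**Figure D1:**
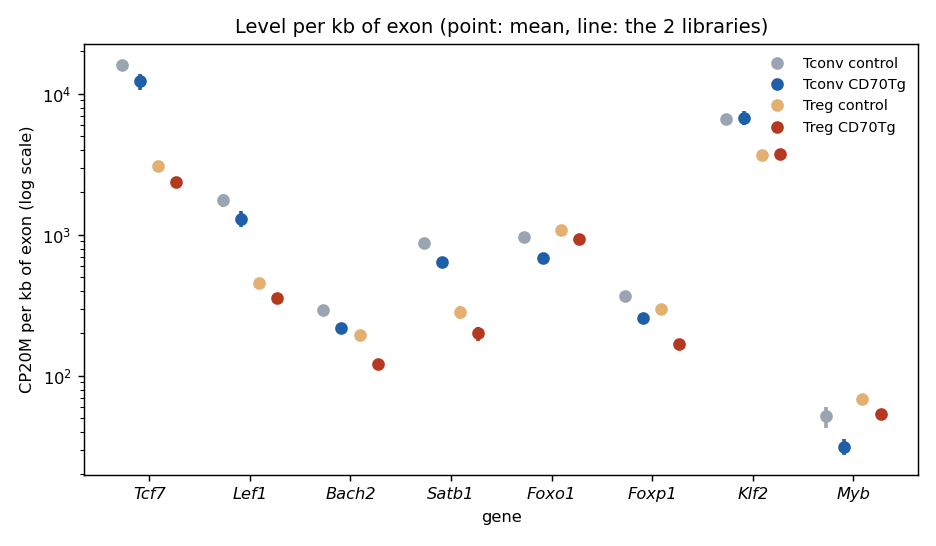
Level of the 8 genes in CP20M per kb of exon (vertical axis, log scale) in the 4 groups. Points are means and lines join the 2 libraries of a group; *Tcf7* ran from 15900 in control Tconvs to 2360 in CD70Tg Tregs, and *Myb* stayed under 70 in every group mean.

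The comparison of Tregs with Tconvs in control mice asked how the subsets differ without the transgene. *Tcf7*, *Lef1*, *Satb1*, *Klf2*, *Bach2* and *Foxp1* were lower in Tregs, 6 of 8 members, beside 18.4% of all tested genes. The first 3 were also past an absolute log2 difference of 1, beside 4.43% of all genes. *Foxo1* and *Myb* did not pass the test, and 27.5% of all genes were higher in Tregs. *Tcf7* was at 43076 and 40413 CP20M in control Tconvs and at 8769 and 7466 in control Tregs, a log2 difference of -2.37 ± 0.14 (SE; adjusted p = 1.4e-09, limma). Even the nearest libraries of these groups differed by -78.3%.

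*Lef1*, the partner of *Tcf7* at the same DNA element, was at 17214 and 13874 in control Tconvs and at 4086 and 3963 in control Tregs. Its log2 difference was -1.94 ± 0.14 (SE; adjusted p = 1.2e-08, limma). *Satb1* was at 17528 and 15592 in Tconvs and at 5925 and 4799 in Tregs, a difference of -1.63 ± 0.14 (adjusted p = 1.2e-07). For these 3 genes, and for *Klf2*, every Treg library of either genotype lay below every Tconv library. *Klf2* and *Bach2* differed less, by -0.83 ± 0.13 (adjusted p = 7.4e-05) and -0.58 ± 0.14 (adjusted p = 0.0028). For *Bach2* the difference without the second control Treg library was -0.46 (adjusted p = 0.061). *Foxp1* was at -0.30 ± 0.12 with an adjusted p of 0.048, and leaving out any of the 4 control libraries put it past 0.05, with adjusted p-values of 0.092 and 0.16 without the first and second Tconv library and 0.11 and 0.23 without the first and second Treg library. It was also at 0.057 without either CD70Tg Treg library, at 0.051 with a pseudocount of 1 and at 0.11 with no minimum value.

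*Foxo1* was at 9077 and 7803 in control Tconvs and at 9923 and 8867 in control Tregs, and the groups overlapped. Its log2 difference was 0.16 with a 95% interval from -0.10 to 0.41 (adjusted p = 0.31). *Myb* was at 539 and 383 in control Tconvs and at 626 and 605 in control Tregs, a difference of 0.43 ± 0.20 (adjusted p = 0.093). That difference was 0.68 without the first and 0.19 without the second control Tconv library. With median-of-ratios factors the median of all genes shifted by -0.12 in this comparison, and the calls went from 3518 higher and 2357 lower to 3088 higher and 3459 lower. Relative to the median of all genes, the members were at -2.44 for *Tcf7*, -2.01 for *Lef1*, -1.70 for *Satb1*, -0.90 for *Klf2*, -0.65 for *Bach2*, -0.37 for *Foxp1*, 0.09 for *Foxo1* and 0.36 for *Myb*.

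In CD70Tg mice the same 6 members were lower in Tregs than in Tconvs, beside 20.1% of all genes, again with *Tcf7*, *Lef1* and *Satb1* past a log2 difference of 1, beside 4.94%. The other two, *Foxo1* and *Myb*, were higher in Tregs, beside 22.6% of all genes. *Foxo1* differed by 0.45 ± 0.12 (SE; adjusted p = 0.0073, limma) and *Myb* by 0.78 ± 0.20 (adjusted p = 0.0058). Without the first CD70Tg Treg library the difference of *Foxo1* was 0.41 (adjusted p = 0.069), and without the second CD70Tg Tconv library that of *Myb* was 0.60 (adjusted p = 0.0504). *Tcf7* was at -2.36, *Lef1* at -1.86, *Satb1* at -1.69, *Klf2* at -0.85, *Bach2* at -0.84 and *Foxp1* at -0.61, with adjusted p-values from 2.6e-09 to 0.00065. That *Foxo1* and *Myb* passed the test in CD70Tg and not in control mice is no test of a change. The change itself is the difference of the responses given below, which they did not pass.

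**Figure D2:**
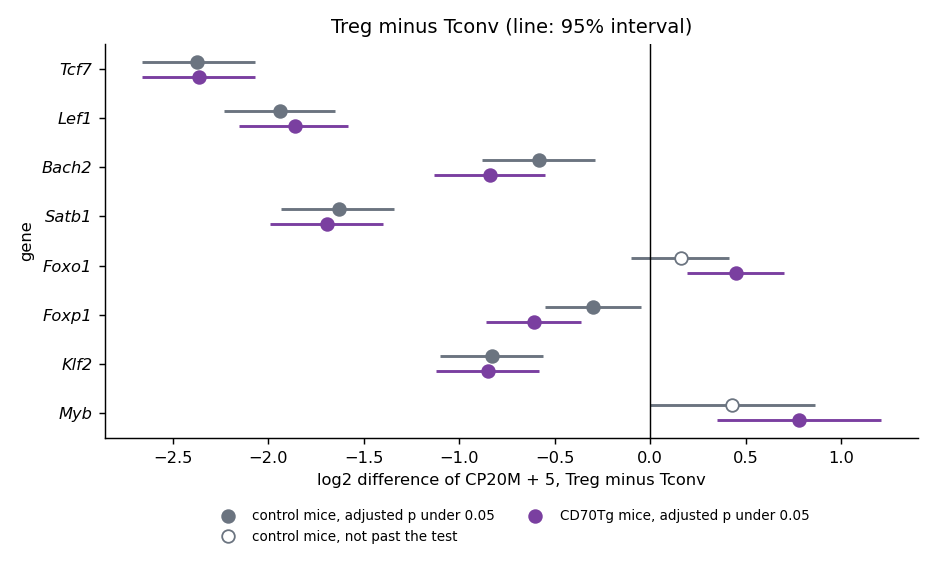
Log2 difference of CP20M + 5, Tregs minus Tconvs, for each gene in control and in CD70Tg mice (horizontal axis), with 95% intervals as lines and open points where the adjusted p-value was not under 0.05. *Tcf7*, *Lef1* and *Satb1* lie below -1 in both genotypes, and *Foxo1* and *Myb* lie to the right of 0.

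The central question was how these factors respond to CD70. In CD70Tg Tregs *Foxp1*, *Bach2* and *Satb1* fell, 3 of 8 members, beside 3.46% of all genes that fell. In CD70Tg Tconvs *Foxp1*, *Foxo1*, *Myb* and *Lef1* fell, 4 of 8 members, beside 1.99% of all genes. These counts depend on the method and on single libraries. With limma-voom on recovered reads they were 1 in Tregs and 7 in Tconvs, with no minimum value 1 and 0, and with the groups of the comparison alone 5 and 2. The count in Tregs was 1 without the first control Treg library and 5 without either CD70Tg Tconv library, and that in Tconvs was 1 without the first control Tconv library, 7 without the first and 0 without the second CD70Tg Tconv library, and 2 without any 1 Treg library. No member rose in either subset, and all changes were smaller than 1 on the log2 scale, a size that 1.08% of all genes in Tregs and 0.577% in Tconvs had lost at an adjusted p under 0.05. For 7 of the 8 members, all but *Klf2*, both CD70Tg libraries lay below both control libraries in Tregs, as for 31.2% of all genes, and in Tconvs, as for 21.4%. The median log2 change of the 8 was -0.38 in Tregs (-0.05 over all genes) and -0.44 in Tconvs (0.01 over all genes). Summed, the 8 genes took 0.536% and 0.492% of the total of the control Tconv libraries and 0.444% and 0.357% of the CD70Tg Tconv libraries. In Tregs they took 0.214% and 0.191% in controls and 0.162% and 0.157% in CD70Tg.

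**Figure D3:**
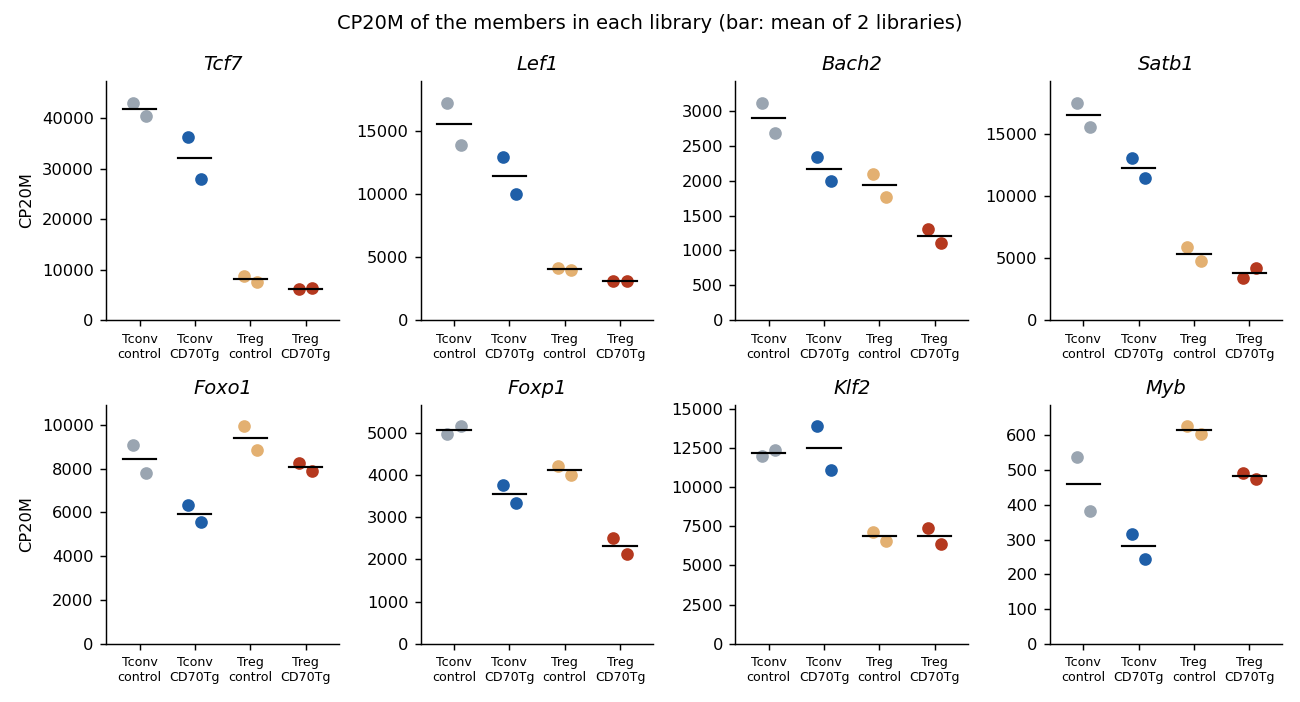
CP20M of each gene in the 8 libraries, 1 panel a gene, with the 4 groups on the horizontal axis, a point for each library and a bar at the mean of 2. All but *Klf2* have both CD70Tg points below both control points in each subset.

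*Foxp1*, the keeper of quiescence, changed the most in Tregs. It was at 4217 and 4007 CP20M in control Tregs and at 2508 and 2137 in CD70Tg Tregs, which is 4112 ± 148 against 2322 ± 262 (SD, n = 2). The nearest libraries of the groups differed by -37.4%, and the log2 change was -0.83 ± 0.12 (SE; 95% interval -1.08 to -0.58; adjusted p = 0.00036, limma). Of all genes tested, 3.18% had a lower change. It kept an adjusted p under 0.05 in all 17 alternative fits, where the highest was 0.026.

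In Tconvs *Foxp1* was at 4967 and 5154 in controls and at 3769 and 3331 in CD70Tg, a log2 change of -0.51 ± 0.12 (adjusted p = 0.0095). The control libraries again stood above the CD70Tg libraries without overlap. Without the second control library the change was -0.49 (adjusted p = 0.061), and without the second CD70Tg library -0.42 (adjusted p = 0.088). With no minimum value the adjusted p was 0.084. In controls *Foxp1* was little lower in Tregs than in Tconvs. Its lowest values of the study were those of CD70Tg Tregs, as were those of *Tcf7*, *Lef1*, *Bach2* and *Satb1*. Its locus (chr6:98925338-99522721, minus strand) carries 31 annotated transcripts, which are summed here, and *Gm20696*, on the same strand, shares 2.18% of its exons.

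*Bach2*, the repressor of effector genes, was at 2102 and 1765 in control Tregs and at 1307 and 1110 in CD70Tg Tregs. Its log2 change was -0.68 ± 0.14 (SE; adjusted p = 0.007, limma). It thus fell by 37.4% on the fitted scale. Without the first control Treg library it was -0.55 (adjusted p = 0.14), and without the second CD70Tg Treg library -0.56 (adjusted p = 0.085). The adjusted p was 0.082 with limma-voom and 0.069 with no minimum value. In Tconvs *Bach2* was at 3118 and 2679 in controls and at 2337 and 1997 in CD70Tg, a change of -0.42 ± 0.14 (adjusted p = 0.077). It was -0.45 (adjusted p = 0.019) with limma-voom, and the adjusted p was 0.30 with no minimum value. Without 1 library it lay between -0.53 and -0.31. The groups did not overlap in either subset. The antisense gene *Bach2os* overlaps 5.4% of the exons of *Bach2* (chr4:32238804-32586108), with values of 11.8% to 16.0% of those of *Bach2*, and where strand was not used in counting the reads of such a pair cannot be told apart.

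*Satb1*, the chromatin organiser, was at 5925 and 4799 in control Tregs and at 3365 and 4231 in CD70Tg Tregs. The change was -0.50 ± 0.14 (SE; adjusted p = 0.038, limma), and the nearest libraries differed by -11.8%. It was -0.35 (adjusted p = 0.40) without the first control Treg library and -0.33 (adjusted p = 0.36) without the first CD70Tg Treg library, the shallowest of the study. The call was also lost with median-of-ratios factors (adjusted p = 0.089), upper-quartile factors (0.091), limma-voom (0.16) and no minimum value (0.16). In Tconvs *Satb1* was at 17528 and 15592 in controls and at 13035 and 11439 in CD70Tg. That change, -0.44 ± 0.14, had an adjusted p of 0.062, and of 0.015 with limma-voom and 0.32 with no minimum value. Without 1 library it lay between -0.53 and -0.34. *Satb1* (chr17:51736187-51833290) shares 0.82% of its exons with *Gm36931*, on the same strand, which was at 10.1% to 12% of the value of *Satb1* in every library.

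*Foxo1*, the regulator of homing and survival genes, was at 9077 and 7803 in control Tconvs and at 6316 and 5559 in CD70Tg Tconvs. It fell by 29.6%, with a log2 change of -0.51 ± 0.12 (SE; adjusted p = 0.012, limma). Without the first control Tconv library the change was -0.40 (adjusted p = 0.12), and without the second CD70Tg Tconv library -0.41 (adjusted p = 0.10), and with no minimum value the adjusted p was 0.10. In Tregs *Foxo1* was at 9923 and 8867 in controls and at 8276 and 7884 in CD70Tg. The nearest libraries differed by -6.67%, and the change was -0.22 with a 95% interval from -0.47 to 0.04 (adjusted p = 0.33). Without 1 library it lay between -0.30 and -0.13. *Foxo1* (chr3:52268336-52353221) shares 7.78% of its exons with the antisense gene *Gm20402*, whose values were 10.1% to 15.2% of its own.

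*Myb* was the lowest of the 8, with 47 reads behind its value in the shallowest library. It was at 539 and 383 in control Tconvs and at 317 and 245 in CD70Tg Tconvs, a log2 change of -0.70 ± 0.20 (SE; adjusted p = 0.042, limma). The control libraries differed between themselves by 0.49 on the same scale. The adjusted p was 0.42 without the first control library and 0.28 without the second CD70Tg library, and between 0.0501 and 0.067 without any 1 Treg library. It was 0.19 with no minimum value and 0.086 with the Tconv libraries alone. In Tregs *Myb* was at 626 and 605 in controls and at 492 and 474 in CD70Tg, 4 values without overlap, and the change was -0.35 with a 95% interval from -0.78 to 0.08 (adjusted p = 0.35). The antisense gene *Gm26577* overlaps 6.26% of its exons (chr10:21124935-21160984), at 19.6% to 24.9% of its value.

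*Lef1* was at 17214 and 13874 in control Tconvs and at 12899 and 9967 in CD70Tg Tconvs. Its log2 change of -0.45 ± 0.14 (SE) had an adjusted p of 0.0498 (limma), the closest of the members to the threshold. The call was lost without the first control Tconv library (-0.29, adjusted p = 0.38), without the second CD70Tg Tconv library (-0.26, adjusted p = 0.37) and without each Treg library (adjusted p 0.074 to 0.082). It was lost as well with a pseudocount of 1 (0.056), no minimum value (0.28), median-of-ratios (0.065) or upper-quartile factors (0.073), the Tconv libraries alone (0.15) and the clone-named rows kept (0.054), in all in 12 of 17 alternatives. In Tregs *Lef1* was at 4086 and 3963 in controls and at 3125 and 3105 in CD70Tg, so that the libraries of a group were close together, and the nearest libraries of the groups differed by -21.1%. The change was -0.37 ± 0.14 (adjusted p = 0.11), and between -0.39 and -0.35 without 1 library. Its adjusted p was 0.009 with the Treg libraries alone, 0.39 with limma-voom and 0.29 with no minimum value. The antisense gene *Gm43352* overlaps 13.7% of the exons of *Lef1* (chr3:131110471-131224356), at 13.0% to 18.4% of its value.

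*Tcf7*, the most abundant of the 8 in Tconvs, was at 43076 and 40413 in control Tconvs and at 36343 and 28016 in CD70Tg Tconvs. The CD70Tg libraries were both lower and far from each other. The log2 change was -0.39 with a 95% interval from -0.68 to -0.10 (adjusted p = 0.10, limma), and -0.40 (adjusted p = 0.027) with limma-voom. It was -0.57 without the first and -0.20 without the second CD70Tg Tconv library, and the adjusted p was 0.36 with no minimum value. In Tregs *Tcf7* was at 8769 and 7466 in controls and at 6102 and 6286 in CD70Tg. The change there was -0.39 as well, with an interval from -0.68 to -0.09 and an adjusted p of 0.10. That p was 0.0093 with the Treg libraries alone and 0.25 with limma-voom or with no minimum value. Without 1 library the change lay between -0.50 and -0.27. The 2 annotated transcripts of *Tcf7* (chr11:52252371-52283014) are summed in these values, so that a long and a short form cannot be told apart.

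*Klf2*, the driver of lymphoid exit, was the exception. It was at 11956 and 12384 in control Tconvs and at 13873 and 11070 in CD70Tg Tconvs, and at 7153 and 6559 in control Tregs and 7387 and 6378 in CD70Tg Tregs. In both subsets the control libraries lay between the CD70Tg libraries. The log2 change was 0.03 in Tconvs (95% interval -0.25 to 0.30; adjusted p = 0.95, limma) and 0.00 in Tregs (-0.27 to 0.28; adjusted p = 0.99). The intervals run from -15.7% in Tconvs and -17.0% in Tregs to a gain of up to 23.0% and 21%.

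**Figure D4:**
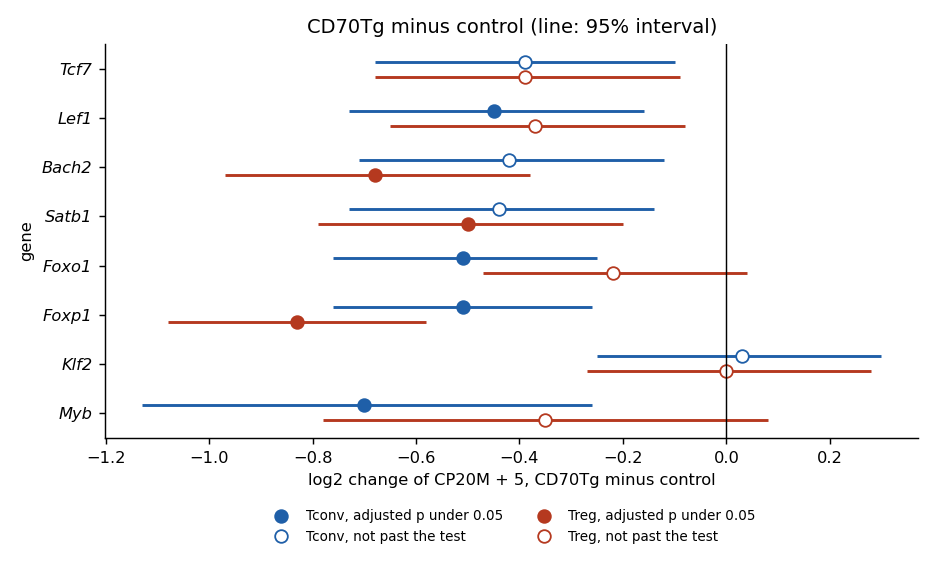
Log2 change of CP20M + 5, CD70Tg minus control, for each gene in Tconvs and Tregs (horizontal axis), with 95% intervals as lines. Filled points had an adjusted p-value under 0.05; *Foxp1* is filled in both subsets, and the points of *Klf2* lie at 0.03 and 0.00.

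Although different members passed the test in Tregs and in Tconvs, the responses themselves could not be told to differ. The difference of the log2 changes (Tregs minus Tconvs) passed the test in 0 of 8 members with limma, 0 at an unadjusted p under 0.05, and 0 with limma-voom on recovered reads, beside 0.827% of all genes with a lower and 0.195% with a higher response in Tregs. The adjusted p-values lay between 0.54 and 1. The largest differences were 0.35 for *Myb* (95% interval -0.26 to 0.96), -0.31 for *Foxp1* (-0.67 to 0.04), 0.29 for *Foxo1* (-0.07 to 0.65) and -0.26 for *Bach2* (-0.67 to 0.16). Without 1 library they ranged from 0.10 to 0.59, from -0.43 to -0.20, from 0.18 to 0.40 and from -0.38 to -0.13, in the same order. For *Tcf7* the difference was 0.00 with an interval from -0.41 to 0.41. *Lef1*, *Satb1* and *Klf2* were at 0.08, -0.06 and -0.02.

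The targets and partners of these factors were then followed in lists that were put together with earlier results of these data known. Of 9 naive and homing genes, *Actn1*, *Bcl2*, *Dapl1* and *Igfbp4* fell in CD70Tg Tregs and *Dapl1* and *Igfbp4* in CD70Tg Tconvs, where *Bcl2* rose, beside 3.46% of all genes that fell in Tregs and 1.99% that fell and 6.82% that rose in Tconvs, which are the shares behind the calls in each list that follows. Over all genes, 21.6% in Tregs and 19.1% in Tconvs had an unadjusted p under 0.05, and limma-voom called 2.01% and 15.6% in either direction. With limma-voom 2 of the 9 passed in Tregs and 5 in Tconvs. Of the genes of all lists, 17 passed in Tregs and 20 in Tconvs, and 6 in each did so in all alternatives: *Bcl2*, *Bhlhe40*, *Eomes*, *Id2*, *Id3* and *Igfbp4* in Tregs, and *Bhlhe40*, *Eomes*, *Id2*, *Id3*, *Prdm1* and *Runx3* in Tconvs. *Igfbp4*, an insulin-like growth factor binding protein of naive cells, was at 1883 and 1489 in control Tregs and at 711 and 620 in CD70Tg Tregs (log2 change -1.33 ± 0.14, SE; adjusted p = 4.1e-05, limma). In control Tconvs it was at 23323 and 22321 and in CD70Tg Tconvs at 14821 and 11276 (-0.82, adjusted p = 0.0011, and up to 0.069 in the alternatives). *Dapl1*, a marker of naive and memory T cells, changed by -1.41 in Tconvs (adjusted p = 0.0011, and up to 0.056 in the alternatives). In Tregs it changed by -0.93 (adjusted p = 0.03) at low levels, 117 and 84 in controls and 63 and 39 in CD70Tg, and the call was lost without the first control or the second CD70Tg Treg library (adjusted p up to 0.29) and in 4 of 9 other alternatives (up to 0.53). *Actn1* in Tregs (-0.74) was lost without the first library of either group, and *Bcl2* in Tconvs (0.47) without the second control library (adjusted p up to 0.069 and 0.066). The homing receptors *Ccr7* and *S1pr1* did not pass the test in either subset, with changes of -0.30 and -0.22 in Tregs and -0.52 and -0.07 in Tconvs. *Il7r*, the receptor for IL-7, was at 0.57 (adjusted p = 0.076) in Tregs and 0.00 in Tconvs. The median of the list was -0.30 in Tregs and -0.20 in Tconvs.

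Among 14 FOXO targets, 3 fell in Tregs and none rose: *Pik3ip1*, an inhibitor of PI3K (-0.64, adjusted p = 0.0078), *Bcl2l11*, which encodes the death factor BIM (-0.56, adjusted p = 0.015), and *Sesn3*, a sestrin (-0.43, adjusted p = 0.03). *Bcl2l11* and *Sesn3* were lost without any 1 of the 4 Treg libraries (adjusted p up to 0.2 and 0.31), and *Pik3ip1* without the first CD70Tg or the second control Treg library (up to 0.11). With limma-voom 0 of the 14 passed in Tregs and 4 in Tconvs, beside 2.01% and 15.6% of all genes, and 8 and 5 had an unadjusted p under 0.05, beside 21.6% and 19.1%. In Tconvs *Bcl6*, the factor of follicular helper cells, and *Sesn1*, another sestrin, fell (both -0.83; adjusted p = 0.026 and 0.0066), and *Gabarapl1*, a gene of autophagy, rose (0.82, adjusted p = 0.04). All 3 calls were lost without the second CD70Tg Tconv library (adjusted p up to 0.43, 0.069 and 0.39), *Bcl6* also without the first library of either Tconv group, and *Gabarapl1* also without either control Tconv library, either control Treg library or the second CD70Tg Treg library. The list medians were -0.33 in Tregs and -0.10 in Tconvs.

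Of 16 partners of TCF and LEF factors, 12 were tested. With limma none passed in Tregs (5 at an unadjusted p under 0.05, beside 21.6% of all genes, and 0 with limma-voom), and *Bcl9*, a cofactor of β-catenin, fell in Tconvs (-0.71, adjusted p = 0.012). That call was lost without the first control or the second CD70Tg Tconv library (adjusted p up to 0.13). *Ctnnb1*, which encodes β-catenin, was at -0.29 in Tregs and -0.14 in Tconvs (adjusted p = 0.14 and 0.57). Of 8 relatives and competitors of BACH2, none passed in Tregs (3 at an unadjusted p under 0.05, beside the same 21.6%, and 0 with limma-voom), and the AP-1 members *Junb* (0.97, adjusted p = 0.019) and *Batf* (0.87, adjusted p = 0.0047) rose in Tconvs. *Junb* was at 4674 and 4269 in control Tconvs and at 5720 and 13468 in CD70Tg Tconvs, so that the second CD70Tg library decided its size, and neither call held without it or without the second control Tconv library (adjusted p up to 0.22 for *Junb* and 0.1 for *Batf*).

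Of 18 close relatives of the members, 14 were tested, among which *Klf7* fell in Tregs (-0.65, adjusted p = 0.02) and *Mybl2*, a factor of cycling cells, rose in Tconvs (1.5, adjusted p = 0.014), and limma-voom called 0 and 3 of the 14, beside 2.01% and 15.6% of all genes. *Klf7* was lost without any 1 of the 4 Treg libraries, and *Mybl2* without the second library of either Tconv group (adjusted p up to 0.14 and 0.2). Beside *Foxo1*, its relatives *Foxo3* and *Foxo4* were at -0.17 and -0.19 in Tregs and -0.15 and -0.27 in Tconvs (adjusted p 0.36 to 0.61). Of 17 other quiescence and T cell factors, 16 of which were tested, 3 fell in Tregs and 3 in Tconvs, while limma-voom called 1 and 6 in either direction, beside the same shares. *Id3*, an inhibitor of E proteins that is kept high in naive cells, fell in both (-1.05, adjusted p = 0.00015 in Tregs and -0.86, adjusted p = 0.00049 in Tconvs) and did so without any 1 library. *Tsc22d3*, which encodes the glucocorticoid-induced leucine zipper, also fell in both (-0.92 and -0.86; adjusted p = 0.019 and 0.021), but in neither without the second CD70Tg library of the subset, in Tregs not without the first control library, and in Tconvs not without the second (adjusted p up to 0.2 and 0.3). *Btg2*, an antiproliferative gene, fell in Tregs (-0.57, adjusted p = 0.0098) and *Zbtb7b*, which encodes the CD4 lineage factor ThPOK, in Tconvs (-0.43, adjusted p = 0.039), where *Gfi1*, a repressor, rose (0.78, adjusted p = 0.043). *Btg2* was lost without any 1 of the 4 Treg libraries, *Gfi1* without the second library of either Tconv group or either CD70Tg Treg library, and *Zbtb7b* without any 1 library but the second CD70Tg Tconv library (adjusted p up to 0.11, 0.46 and 0.22).

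Of 10 factors of effector differentiation, 6 rose in Tregs and 7 in Tconvs, beside 3.94% and 6.82% of all genes that rose, and none fell (8 and 10 at an unadjusted p under 0.05 in either direction, beside 21.6% and 19.1% of all genes). With limma-voom 3 passed in Tregs and 9 in Tconvs, beside 2.01% and 15.6%. *Eomes*, a T-box factor of type 1 effector cells, was at 93 and 75 in control Tregs and at 1547 and 1458 in CD70Tg Tregs (4.09 ± 0.19, SE; adjusted p = 2.2e-09, limma), and the gene rose by 3.33 in Tconvs (adjusted p = 4.2e-09). *Bhlhe40*, a repressor that favours cytokine production, rose by 2.06 in Tregs and 3.91 in Tconvs. *Prdm1*, which encodes BLIMP-1, rose by 2.04 in Tconvs (adjusted p = 1.5e-07). In Tregs it rose by 0.67 (adjusted p = 0.015), a call that was lost without the first control library or either CD70Tg library (up to 0.28). *Id2*, the counterpart of *Id3*, rose by 1.11 in Tregs and 0.95 in Tconvs. *Runx3*, a factor of cytotoxic and type 1 cells, rose in both as well (0.55 and 0.70), *Tbx21*, which encodes T-bet, in Tregs (1.28), and *Batf* and *Irf4* in Tconvs (0.87 and 0.74). Of these, *Runx3* and *Tbx21* in Tregs were lost without any 1 of the 4 Treg libraries (adjusted p up to 0.094 and 0.12) and in 2 of 9 other alternatives each (up to 0.07 and 0.43), and *Irf4* without the second library of either Tconv group or any 1 Treg library (up to 0.54). The list median was 0.61 in Tregs and 0.96 in Tconvs, beside -0.38 and -0.44 for the 8 members.

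**Figure D5:**
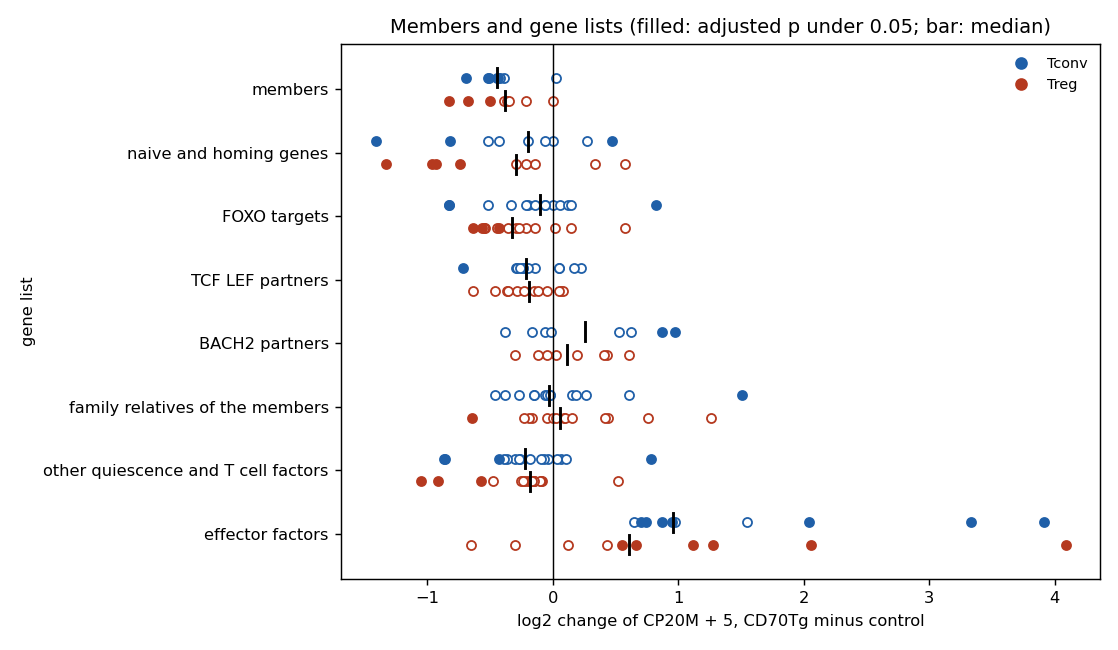
Log2 change of CP20M + 5, CD70Tg minus control, on the horizontal axis for every tested gene of each list (rows), in Tconvs and in Tregs, with filled points at an adjusted p-value under 0.05 and a bar at the median. The medians of the members lie at -0.44 and -0.38 and those of the effector factors at 0.96 and 0.61.

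Markers of other cells were read beside these changes. The sum of 5 T cell markers was 95480 and 97899 in control and 99765 and 84763 in CD70Tg Tconvs, and 67294 and 66974 in control and 72096 and 73631 in CD70Tg Tregs. The 6 markers of cycling cells summed to 1336 and 1332 in control and 2112 and 4504 in CD70Tg Tconvs, where 5 of 6 rose, and to 3511 and 4123 in control and 5822 and 6255 in CD70Tg Tregs, where 0 of 6 rose with limma. The second CD70Tg Tconv library, in which the cycling markers were highest, had the lowest value of each of the 8 members among the Tconv libraries. The sum of *Cd8a* and *Cd8b1* was 720 and 681 in control and 1563 and 1590 in CD70Tg Tconvs, where both rose, and 317 and 417 in control and 660 and 631 in CD70Tg Tregs, where *Cd8a* rose. Before the sort of CD3+ CD4+ cells, CD8+ cells had been depleted, as had B cells, macrophages, dendritic cells, NK cells, granulocytes and Ter119+ (erythroid) cells. For Tconvs, and not for Tregs, CD25+ cells had been depleted as well. *Klrb1c*, a marker of NK and NKT cells, fell in both subsets, and in Tconvs it was at 403 and 423 in controls and 75 and 68 in CD70Tg. In Tregs it was at 64 and 36 in controls and 0 and 11 in CD70Tg, where 3 reads stand for 31.3 and 16.3. Neutrophil markers reached 233 and 248 in CD70Tg Tregs, against at most 34 elsewhere, and erythroid markers 2656 and 1699 in the same libraries, against 424 to 1153 elsewhere. B cell markers summed to 79 to 505, plasma cell markers (mostly *Xbp1*) to 1540 to 2205 and platelet markers to 5 to 36, while *Ncr1*, a defining gene of NK cells, was at 2 or less in all libraries. Dendritic cell markers, of the cells that carry the transgene, summed to 72 and 138 in control and 195 and 345 in CD70Tg Tconvs, where *Itgax* rose (1.76, adjusted p = 0.015). In Tregs they summed to 99 and 156 in control and 410 and 378 in CD70Tg, where *Zbtb46* rose (2.72, adjusted p = 0.0017). Only 2 of these 6 markers were tested. In Tconvs the others moved both ways at low values. *Xcr1* was at 7 and 26 in control and 49 and 56 in CD70Tg, and *Siglech* at 6 and 28 and at 0 and 3. Macrophage and monocyte markers summed to 1135 to 2960, but moved both ways. In CD70Tg Tregs *Itgam* rose (1.13, adjusted p = 0.013) and *Csf1r* fell (-0.67, adjusted p = 0.029), and in CD70Tg Tconvs *Cd68* rose (2.02, adjusted p = 0.00011) and *Itgam* fell (-0.95, adjusted p = 0.027). The summed Treg markers, which include *Il2ra* (CD25), were at 62848 to 70773 in Tregs and at 4581 to 6168 in Tconvs. The part of these cells in the changes of the members was not tested.

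Finally, genes with the pattern most like each member over the 8 libraries were sought among the genes with a mean of at least 200 CP20M, by Pearson's r of log2(CP20M + 5). Such a correlation follows the gap between Tregs and Tconvs wherever a gene has one, the points share their libraries and depths, and it is given without a test. *Tcf7* went with *Pdlim1*, *Stk4* and *Ccr7* (r = 0.997 each) and *Lef1* with *Tcf7* (0.996), *Gltp* and *Pdlim1* (0.995 each). *Satb1* went with *Icam2*, *Gm36931* (0.997 each) and *Actn1* (0.995), where *Gm36931* shares exons with it. *Bach2* was most like *Slc39a14* (0.994), *Cggbp1* (0.992) and *Gpatch4* (0.989), and *Foxp1* like *Il6ra* (0.992), *Rpf2* (0.978) and *Tsr1* (0.976). *Klf2* went with *Ucp2* (0.991), *Mylip* (0.989) and *S1pr1* (0.988). *Foxo1* and *Myb* stood apart from the rest and were among the closest to each other (0.974), with *Ccnd2* (0.975) and *Thrap3* (0.965) beside *Foxo1*, and *Srpk2* (0.969) and *Ephx1* (0.967) beside *Myb*. Of the 9536 genes compared, 444 had an r over 0.95 with *Tcf7*, 420 with *Lef1* and 445 with *Satb1*, against 3 with *Foxo1* and 9 with *Myb*.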

How the data were processed

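RNA was extracted from sorted splenic Tregs and Tconvs, and libraries were made with the Ovation SoLo system and sequenced with paired ends. The score values in the deposited table (CP20M) were made by the authors from reads trimmed with Trimmomatic 0.36, mapped to mm10 with STAR 2.5.3 and counted per gene with HTSeq 0.9.1, with each library scaled to 20000000; the values are whole numbers, and from their pattern were rounded up. The gene annotation and the strand setting are not given in the sources used here. Within a library the lowest values lie on whole multiples of what 1 read is worth, and from that worth the reads were recovered (1920000 to 33370000 a library). That worth is less certain for the deepest library (0.6005) and the first control Tconv library (1.0245). Values given by 3 reads were 1.8 to 31.3, and cover counting error only.

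The 8 columns were grouped by their names. They do not carry the replicate numbers of the sample titles. The 4131 rows named after genomic clones were set aside because they are not on those multiples, a choice made after seeing values, and where 97 names were on several rows the largest took the name. A gene was tested if 2 or more libraries reached 60, which left 12816, in R 4.3.3 with limma 3.58.1 on log2(value + 5), with a trend in the prior variance, in 1 model of 4 groups. Fold changes on this scale understate those of low genes. The comparisons were CD70Tg against control in each subset, their difference, and Tregs against Tconvs in each genotype; these share libraries. Positions and exon lengths are from GENCODE M21. The procedure was tested on simulated data. Alternatives were other pseudocounts (1, 20), minimum values, scaling factors, limma-voom on recovered reads, the groups of a comparison alone, keeping the clone-named rows, and leaving out each library, where a lone library was taken to vary like the other groups. The members, lists and motifs were chosen with earlier results of these data known. Named were the 8 members, of each list up to 3 genes a direction with the largest change among those past the test, genes behind counts of 5 or fewer and selected list genes that did not pass, of which the last 2 kinds were named after their values were seen, and the 3 genes most like each member.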

Additional observations from a re-analysis of the deposited data

Results flagged for a closer look

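For 4 of 77 tested genes of the lists followed beside the members, all with the lower change in Tregs (0.827% of all genes were lower and 0.195% higher), and for none of the 8 members, the response to CD70 differed between Tregs and Tconvs by limma's test of the difference. *Bcl2*, the survival factor, was at 3839 and 3359 CP20M in control and 1808 and 1865 in CD70Tg Tregs, and at 2512 and 2480 in control and 3492 and 3445 in CD70Tg Tconvs. It fell in Tregs and rose in Tconvs, a difference of -1.44 on the log2 scale (adjusted p = 0.00026), which held without any 1 library. *Prdm1* rose less in Tregs than in Tconvs (-1.38, adjusted p = 0.0044), also without any 1 library. *Bhlhe40* differed by -1.86 (adjusted p = 0.013), not past the test without the second CD70Tg Tconv or the first CD70Tg Treg library (adjusted p up to 0.082). *Irf4* was at 2267 and 2194 in control and 1484 and 1354 in CD70Tg Tregs, and at 808 and 413 in control and 899 and 1045 in CD70Tg Tconvs, a difference of -1.39 (adjusted p = 0.033) that was lost in 5 of the 8 fits without 1 library. Its change in Tregs alone, -0.65, had an adjusted p of 0.077. Over the other alternatives, *Bcl2* and *Prdm1* were lost in 1 of 8 each, *Bhlhe40* in 2 and *Irf4* in 5.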

How the results depend on the processing

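No paired analysis was possible because the columns of the table carry no replicate numbers. The number of members past the test was 3 in the Treg response and 4 in the Tconv response. It was 1 and 0 with no minimum value, 1 and 7 with limma-voom on recovered reads, and 5 and 2 with the groups of the comparison alone. Without 1 library it ranged from 1 to 5 in the Treg response, 0 to 7 in the Tconv response, 0 to 0 for the difference of responses, 4 to 6 for control Tregs against Tconvs and 7 to 8 for CD70Tg Tregs against Tconvs. The lowest counts were without the first control Treg library for Tregs and without the second CD70Tg Tconv library for Tconvs. *Foxp1* in Tregs passed in all 17 alternatives, and the other calls in the responses were each lost in at least 1. The lower counts with no minimum go with more genes tested (26467), and the cause of the other changes was not tested. Signs turned only for changes near 0 that passed no test. *Klf2* was at -0.01 in Tregs with limma-voom, and in Tconvs at -0.02 with median-of-ratios and -0.01 with upper-quartile factors. In the difference of responses *Satb1* was at 0.01 with both scalings and *Klf2* at 0.04 and 0.05. Without 1 library *Klf2* lay between -0.10 and 0.11 in the Treg response and between -0.14 and 0.19 in the Tconv response, and in the difference of responses *Tcf7* ranged from -0.19 to 0.19, *Lef1* from -0.11 to 0.26, *Satb1* from -0.23 to 0.10 and *Klf2* from -0.19 to 0.14. Of 672 values of members over all alternatives, 588 kept their direction and side of the threshold, 47 lost and 13 gained the test, and 24 turned sign. Over all genes, 505 rose and 443 fell in Tregs, against 175 and 86 with no minimum, 190 and 68 with limma-voom and 829 and 786 with the Treg libraries alone. In Tconvs 874 rose and 255 fell, against 314 and 51 with no minimum and 1338 and 664 with limma-voom. Past a log2 change of 1, 138 fell in Tregs (52 with no minimum, 35 with limma-voom) and 74 in Tconvs (24 and 154). The difference of responses gave 25 higher and 106 lower, against 0 and 0 with no minimum and 11 and 52 with limma-voom. The fit with the replicate number was not run, and the groups of the comparison alone give the fit as reported for the difference. Depth limits *Myb* the most, with 47 reads in the shallowest library.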
